A study of Trichoderma reesei with 24 samples.

Results

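The change of gene expression between glucose and glycerol was compared between the Δ*nsd3* strain and the wild-type (WT) strain of *Trichoderma reesei*, a filamentous fungus grown for its secreted cellulases. For each gene, the response to glycerol was taken as the log2 level on glycerol minus that on glucose. The interaction is the response of the Δ*nsd3* strain minus the response of WT. A positive interaction therefore means a larger increase or a smaller decrease on glycerol without *nsd3*, and a negative one the opposite. The comparison used 12 of the 24 RNA-Seq libraries, in 4 groups of 3, which were the Δ*nsd3* strain on glycerol, the Δ*nsd3* strain on glucose, WT on glycerol, and WT on glucose, all mycelia grown for 24 h in minimal medium. Of the 8755 genes in the table, 7583 had at least 1 TPM (transcripts in proportion to all transcripts of the library, corrected for gene length) in at least 3 of these libraries and were tested.

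The WT strain is TU6, a uridine auxotroph derived from QM9414. In the Δ*nsd3* strain, made in TU6, *nsd3* was replaced by the *pyr4* marker (nsd3::pyr4), and RNA came from 1 transformant. The study added uridine to cultures where it was needed, without saying to which, so the medium may have differed between the strains. Loss of *nsd3*, gain of *pyr4*, any such difference in medium, and anything else particular to this transformant cannot be told apart. The labels do not say whether replicates came from separate cultures, so p-values measure the spread between these libraries, which may be technical. In bulk mycelium, fewer cells of a type and less RNA per cell cannot be told apart either.

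Nsd3 is a C2H2 zinc finger transcription factor related to NsdC, which controls sexual development in *Aspergillus*. Glucose is a preferred carbon source that represses genes for the use of other sources, in part through the repressor Cre1. Glycerol is a slower carbon source that neither represses nor induces the cellulase genes strongly, and it feeds into glycolysis and gluconeogenesis at the level of the triose phosphates.

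With replicates given in the order 1 to 3, *nsd3* (TRIREDRAFT_75672) had 0.178, 0.141, and 0.365 TPM in Δ*nsd3* mycelia on glycerol, and 0.151, 0.226, and 0.166 TPM on glucose. In WT, it had 278, 238, and 249 TPM on glycerol, and 222, 226, and 171 TPM on glucose. Every Δ*nsd3* library lay far below every WT library, which fits the labels. Depth, estimated from the TPM steps that stand for 1 read, was 29.0 to 41.3 M reads in 11 of the 12 libraries and 238 M in the other one, replicate 3 of the glycerol group without *nsd3*. Within groups, log2(TPM + 1) correlated across genes by 0.987 to 0.996, and the first principal component, with 65.4% of the variance, separated glycerol from glucose, while the second, with 18.0%, separated the strains.

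How many genes had a positive or a negative interaction depended on how the libraries were scaled. On the TPM scale, 1178 genes (15.5% of those tested) had a positive and 196 (2.58%) a negative interaction, so that 85.7% of the calls were positive. A gene was called when its interaction was at least 1 in absolute log2 and its adjusted p, from limma with Benjamini-Hochberg adjustment over all genes tested, was under 0.05. After the libraries were rescaled by the median of ratios, 341 genes (4.5%) were positive and 483 (6.37%) negative, so that 41.4% of the calls were positive. The median interaction over all genes was 0.46 on the TPM scale and −0.01 after rescaling. Without the fold threshold, 54% and 35.3% of the genes had an adjusted p under 0.05 on these 2 scales.

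The size factors behind the rescaling were 1.09 to 1.23 for the Δ*nsd3* strain on glycerol and 0.883 to 0.975 on glucose. For WT, they were 0.846 to 0.988 on glycerol and 1.02 to 1.06 on glucose. They therefore moved with the groups, in opposite directions in the 2 strains. The most abundant transcripts also differed, as the 10 highest genes held 15.3% to 16.1% of all TPM in Δ*nsd3* mycelia on glycerol and 18.1% to 20.8% on glucose, against 21.9% to 23.6% in WT on glycerol and 16.0% to 16.9% on glucose. The part of this difference in the shift of the median was not tested.

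**Figure D1:**
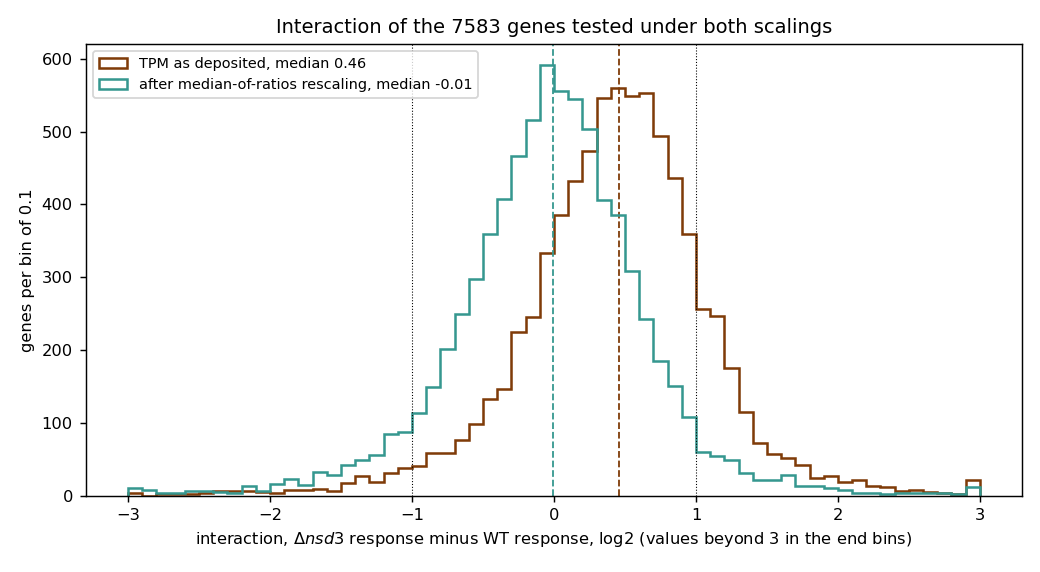
Number of genes (vertical axis) by interaction in log2 (horizontal axis, bins of 0.1) on the TPM scale (brown) and after median-of-ratios rescaling (green), with dashed lines at the medians and dotted lines at the fold threshold. The TPM curve is centred at 0.46 and the rescaled one at −0.01, so the rescaling moves genes across the threshold on both sides.

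The rest of the description therefore rests on the 537 genes (7.08% of those tested) called in the same direction on both scales. These were 341 positive (4.5%) and 196 negative genes (2.58%), that is, all genes positive after rescaling and all genes negative on the TPM scale. The 2 scales gave no gene contrary calls. Rescaling moves most genes by a similar amount, so contrary calls could hardly arise, and their absence is no separate support. Their median interaction was 1.78 for the positive and −1.35 for the negative genes on the TPM scale, and 1.32 and −1.81 after rescaling. Only 8 of the positive and 5 of the negative genes have a symbol in the RefSeq gene table, where 216 of the genes tested have one, so most are given here by their identifier. In 22 positive and 3 negative genes, the Δ*nsd3* strain was under 1 TPM on both carbon sources, and in 8 and 4 genes WT was. In these genes the interaction is little more than the response of the other strain.

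The responses to glycerol were also compared strain by strain. On the TPM scale, the Δ*nsd3* strain had 1410 genes up (18.6%) and 571 down (7.53%) on glycerol, against 695 up (9.17%) and 1060 down (14%) in WT, and after rescaling the counts were 884 up (11.7%) and 908 down (12%) against 872 up (11.5%) and 806 down (10.6%). The responses of the 2 strains, which share no library, correlated across the 7583 genes by 0.803. The 341 positive genes were most often repressed on glycerol in WT alone (136 genes) or induced in the Δ*nsd3* strain alone (118 genes). Another 33 were induced in both strains, 21 were repressed in both, 14 had opposite called responses, and 19 had no called response in either strain. After rescaling, 113 were repressed in WT alone, 82 were induced in the Δ*nsd3* strain alone, 39 were induced in both, 33 were repressed in both, 4 had opposite responses, and 70 had no call.

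Among the 196 negative genes, 52 were repressed on glycerol in the Δ*nsd3* strain alone, 50 were induced in WT alone, and 48 were induced in both strains, less so without *nsd3*. The remaining negative genes were 20 repressed in both strains, 3 with opposite called responses, and 23 with no call. After rescaling, 64 were repressed in the Δ*nsd3* strain alone, 53 were induced in WT alone, 46 were induced in both, 17 were repressed in both, 7 had opposite responses, and 9 had no call. The pattern was the same on both scales in 265 of the 341 positive and 173 of the 196 negative genes.

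The same genes could be read as strain effects on each carbon source, from the same 12 libraries. Of the positive genes, 139 were higher in Δ*nsd3* mycelia on glycerol only, 131 were lower on glucose only, and 19 were both. Of the negative genes, 71 were lower in Δ*nsd3* mycelia on glycerol only, 69 were higher on glucose only, and 4 were both. Over all genes tested, the mutant was higher in 7.74% and lower in 3.27% on glycerol, and higher in 3.31% and lower in 6.8% on glucose, while after rescaling these shares were 3.98%, 5.54%, 5.14%, and 4.62%. A further 46 positive and 47 negative genes had no called strain effect on either carbon source. After rescaling, the positive genes were 112 on glycerol only, 109 on glucose only, 8 with both, and 102 with neither, and the negative genes were 90, 77, 13, and 12. The genes were chosen with these libraries, so the counts are a description.

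**Figure D2:**
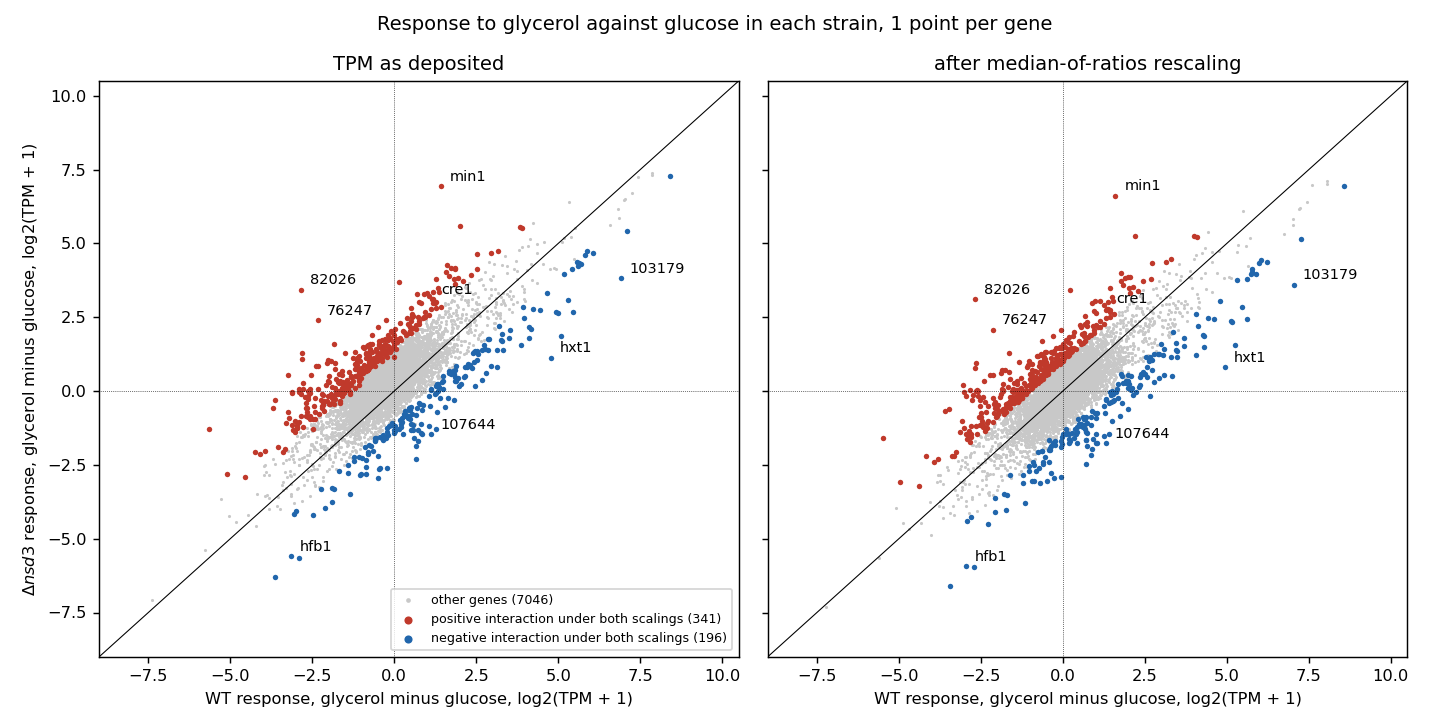
Response to glycerol in the Δ*nsd3* strain (vertical axis, log2) against that in WT (horizontal axis, log2), 1 point per gene, on the TPM scale (left) and after rescaling (right), with the line of equal responses. The 341 positive genes (red) lie above the line and the 196 negative genes (blue) below it in both panels, and TRIREDRAFT_82026 and TRIREDRAFT_76247 lie in the quadrant of genes up in the Δ*nsd3* strain and down in WT.

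Opposite called responses were found in 17 genes on the TPM scale, 11 after rescaling, and 7 on both scales. The largest interaction of all named genes was that of TRIREDRAFT_82026. In replicates 1 to 3, it had 377, 527, and 655 TPM in Δ*nsd3* mycelia on glycerol and 52.2, 37.6, and 49.0 TPM on glucose, against 10.6, 13.4, and 8.57 TPM in WT on glycerol and 78.9, 96.7, and 75.9 TPM on glucose. It was induced on glycerol in the mutant and repressed in WT, with no overlap between groups on either carbon source. Its responses were 3.44 in the Δ*nsd3* strain and −2.85 in WT, and the interaction was 6.29 (SE 0.27, adjusted p = 6.9e-10), or 5.78 after rescaling. No given annotation names a product for it.

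TRIREDRAFT_76247 followed the same pattern at a higher level on glucose. It had 483, 506, and 613 TPM in Δ*nsd3* mycelia on glycerol and 107, 95.7, and 96.4 TPM on glucose, against 52.3, 55.1, and 46.7 TPM in WT on glycerol and 231, 321, and 241 TPM on glucose. The 4 groups did not overlap, since the mutant was higher than WT on glycerol and lower on glucose, and the interaction was 4.73 (SE 0.18, adjusted p = 2.6e-10). TRIREDRAFT_122523 had an interaction of 3.44 (SE 0.21, adjusted p = 6.9e-08), with 54.2 ± 4.003 TPM in Δ*nsd3* mycelia on glycerol and 17.1 ± 1.52 TPM on glucose, against 8.01 ± 2.09 TPM in WT on glycerol and 30.7 ± 3.94 TPM on glucose (SD, n = 3). TRIREDRAFT_5206 was called in opposite directions on the TPM scale, with an interaction of 2.79, but its response in the Δ*nsd3* strain, 1.30, was 0.99 after rescaling and lost its call.

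In the other direction, TRIREDRAFT_123577 and TRIREDRAFT_107644 were repressed on glycerol in the Δ*nsd3* strain and induced in WT on both scales. TRIREDRAFT_123577, the more abundant, had 758, 701, and 542 TPM in Δ*nsd3* mycelia on glycerol and 1435, 1527, and 1543 TPM on glucose, against 1013, 1244, and 1447 TPM in WT on glycerol and 524, 648, and 582 TPM on glucose. The mutant was thus below WT on glycerol and above it on glucose, without overlap, and the interaction was −2.25 (SE 0.20, adjusted p = 1.2e-06). TRIREDRAFT_107644 had an interaction of −2.61 (SE 0.19, adjusted p = 3.5e-07) at 5.53 to 19.0 TPM in the mutant and 4.34 to 13.8 TPM in WT.

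The second largest positive interaction was that of *min1* (TRIREDRAFT_34493), which was induced on glycerol in both strains but far more in the mutant. It had 705, 1277, and 1929 TPM in Δ*nsd3* mycelia on glycerol and 9.62, 7.16, and 10.03 TPM on glucose. In WT, it had 14.4, 16.3, and 39.2 TPM on glycerol and 7.93, 7.44, and 6.39 TPM on glucose. The strains overlapped on glucose and were far apart on glycerol, with responses of 6.93 and 1.42 and an interaction of 5.51 (SE 0.47, adjusted p = 8.2e-07). TRIREDRAFT_105533 was also induced in both strains, with 853, 1535, and 838 TPM in Δ*nsd3* mycelia on glycerol against 210, 197, and 327 TPM in WT. On glucose, it had 16.1, 26.8, and 20.1 TPM in the mutant against 81.0, 92.2, and 25.9 TPM in WT. The mutant was called lower there, although the strains overlapped. The interaction was 3.56 (SE 0.52, adjusted p = 8.8e-05).

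TRIREDRAFT_76238 fell on glycerol in WT and was not called in the mutant. It had 300, 332, and 452 TPM in Δ*nsd3* mycelia on glycerol and 214, 284, and 235 TPM on glucose, against 26.2, 20.7, and 29.9 TPM in WT on glycerol and 190, 196, and 417 TPM on glucose. The strains overlapped on glucose and not on glycerol, and the interaction was 3.80 (SE 0.34, adjusted p = 1.3e-06). TRIREDRAFT_111442 was repressed on glycerol in both strains, with 10.2, 15.6, and 26.9 TPM in the mutant on glycerol and 41.6 ± 10.3 TPM on glucose, against 1.72, 1.70, and 2.01 TPM in WT on glycerol and 140 ± 6.69 TPM on glucose (SD, n = 3), and had an interaction of 4.38 (SE 0.34, adjusted p = 4.2e-07). TRIREDRAFT_112125 and TRIREDRAFT_4484, with interactions of 4.102 and 3.90, were induced in the mutant and repressed in WT on the TPM scale, while after rescaling only their repression in WT was called.

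The strongest negative interaction was that of *hxt1* (TRIREDRAFT_22912), which encodes a glucose transporter. It had 51.6, 43.9, and 36.4 TPM in Δ*nsd3* mycelia on glycerol and 16.0, 20.4, and 22.0 TPM on glucose. In WT, it had 77.6, 69.5, and 61.6 TPM on glycerol and 1.33, 1.25, and 2.22 TPM on glucose. The large step was in WT, where *hxt1* was nearly silent on glucose, whereas the mutant had a higher level there. On glycerol, every mutant library lay below every WT library, but the log2 difference of −0.66, or −0.99 after rescaling, was under the fold threshold and not called. The interaction was −3.64 (SE 0.24, adjusted p = 1.2e-07), or −4.13 after rescaling. TRIREDRAFT_106538 also had its large step in WT, with 11.3 ± 1.74 TPM in the mutant on glucose against 0.814 ± 0.778 TPM in WT (SD, n = 3). Its strains overlapped on glycerol, and the interaction was −3.22 (SE 0.42, adjusted p = 3.3e-05).

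In 2 other genes, the strains differed on glycerol. TRIREDRAFT_103179 had 16.3, 20.9, and 11.4 TPM in Δ*nsd3* mycelia on glycerol, against 129, 128, and 118 TPM in WT, while on glucose it was at most 0.285 TPM in all 6 libraries. Its induction was called in both strains and was weaker without *nsd3*, and the interaction was −3.09 (SE 0.25, adjusted p = 6.9e-07). TRIREDRAFT_123079 had 11.5, 10.9, and 3.16 TPM in the mutant and 79.2, 119, and 27.6 TPM in WT on glycerol, with wide spread in both strains and an interaction of −2.78 (SE 0.62, adjusted p = 0.0021). On estimated reads with voom, its interaction of −3.47 was not called (adjusted p = 0.25, where the other alternatives gave 5.6e-05 to 0.018).

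TRIREDRAFT_104251 and TRIREDRAFT_109239 were glucose genes whose decrease on glycerol was deeper in the mutant. TRIREDRAFT_104251 had 14.4, 11.3, and 16.0 TPM in Δ*nsd3* mycelia on glycerol and 670, 722, and 825 TPM on glucose, against 28.04, 43.3, and 67.9 TPM in WT on glycerol and 323, 346, and 329 TPM on glucose. The mutant was thus lower than WT on glycerol and higher on glucose, without overlap, with an interaction of −2.74 (SE 0.31, adjusted p = 9.9e-06). For TRIREDRAFT_109239, with an interaction of −2.66, the mutant stood at 864 ± 64.2 TPM against 171 ± 40.5 TPM in WT on glucose (SD, n = 3), and the strains overlapped on glycerol. TRIREDRAFT_82577, at −2.50, was repressed on glycerol in the mutant alone.

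**Figure D3:**
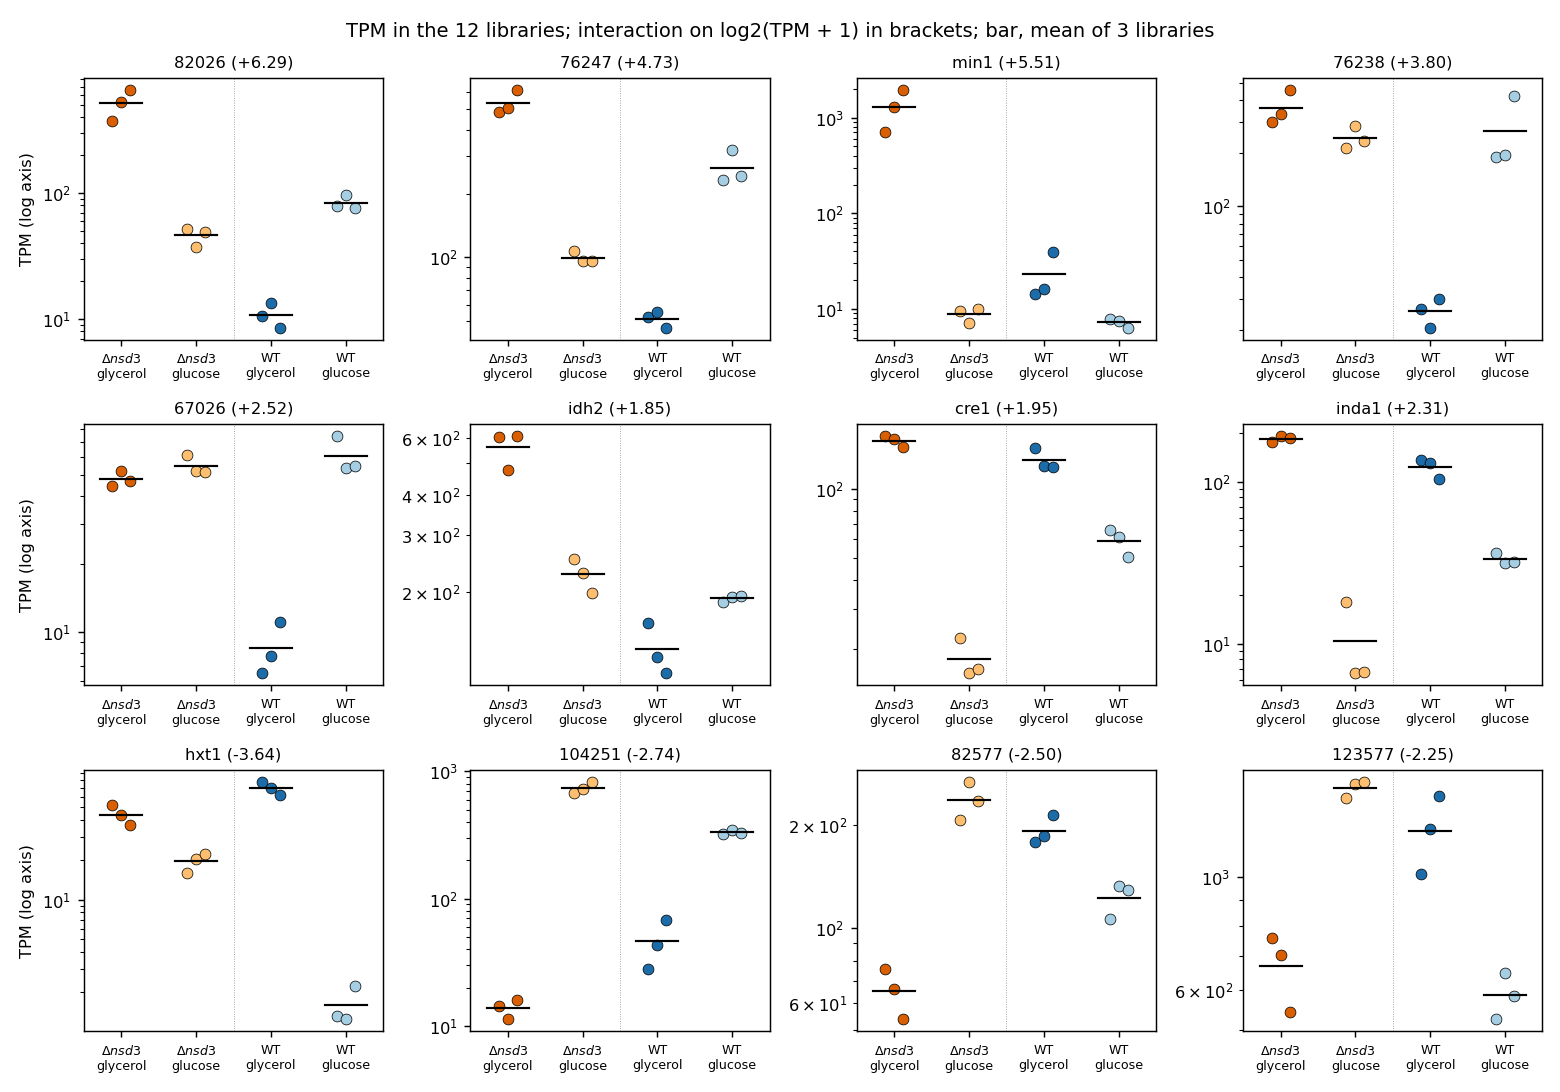
TPM (vertical log axes) of 12 genes in each of the 12 libraries, with the Δ*nsd3* strain on glycerol and glucose left of WT on glycerol and glucose, points for libraries, bars for means of 3, and the interaction in brackets. The 8 genes of the first 2 rows have positive and the 4 of the last row negative interactions, and *cre1*, *inda1*, and *hxt1* differ between strains mainly on glucose.

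Of the 216 genes tested that have a symbol, 159 were grouped by function into 16 lists. The positive genes *min1*, *pap1*, and *cro1* were in none of them. Over all genes tested, 15.5% were positive and 2.58% negative on the TPM scale, 4.5% and 6.37% after rescaling, and 4.5% and 2.58% on both scales. The counts below describe single genes, and no list was tested as a whole. Among 9 regulators of carbon use and of cellulase genes, 1 was called on both scales (7.08% of all genes), *cre1* (TRIREDRAFT_120117), for the repressor that mediates carbon catabolite repression. It had 169, 164, and 151 TPM in Δ*nsd3* mycelia on glycerol and 22.4, 15.6, and 16.3 TPM on glucose, against 150, 125, and 124 TPM in WT on glycerol and 66.0, 61.6, and 50.4 TPM on glucose. On glucose every mutant library lay below every WT library, while the difference between strains on glycerol was not called. The induction on glycerol was 3.10 in the mutant and 1.16 in WT, an interaction of 1.95 (SE 0.20, adjusted p = 3.5e-06), or 1.43 after rescaling. The other 8, among them *xyr1*, for an activator of cellulase genes, and *snf1*, a kinase of glucose derepression, were not called on either scale, and the median of the list was 0.62, or 0.10 after rescaling.

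Of 3 transport genes, *hxt1* was negative and *inda1* (TRIREDRAFT_51110), named after an amino acid permease gene of *Trichoderma harzianum*, was positive. *inda1* had 176, 192, and 187 TPM in Δ*nsd3* mycelia on glycerol and 18.1, 6.54, and 6.70 TPM on glucose, against 136, 131, and 104 TPM in WT on glycerol and 36.3, 31.4, and 32.0 TPM on glucose. As for *cre1*, the strain difference was called on glucose, where the mutant was lower, and not on glycerol, and the interaction was 2.31 (SE 0.35, adjusted p = 0.00013). The third, *glt1*, was called on the TPM scale only (1.09, or 0.57 after rescaling).

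Of 10 genes of the citrate and glyoxylate cycles, acetyl-CoA formation, and ATP synthase, 5 were positive on the TPM scale (15.5% of all genes) and 2 on both scales (4.5% of all genes), with a median of 0.87, or 0.35 after rescaling. *idh2* (TRIREDRAFT_74983), for a subunit of NAD-dependent isocitrate dehydrogenase, had 604, 476, and 607 TPM in Δ*nsd3* mycelia on glycerol and 252, 228, and 199 TPM on glucose, against 160, 126, and 112 TPM in WT on glycerol and 186, 193, and 194 TPM on glucose. It was far above WT on glycerol, and the interaction was 1.85 (SE 0.19, adjusted p = 4.7e-06), or 1.32 after rescaling. *acs1* (TRIREDRAFT_73774), for acetyl-CoA synthetase, had an interaction of 1.81 (SE 0.26, adjusted p = 7.0e-05) through glucose, where the mutant had 91.7, 78.0, and 65.9 TPM against 185, 187, and 181 TPM in WT.

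The glyoxylate cycle genes *acu3*, for isocitrate lyase, and *acu9*, for malate synthase, were strongly induced on glycerol in both strains. *acu3* had 388, 443, and 355 TPM in Δ*nsd3* mycelia on glycerol against 207, 201, and 148 TPM in WT, and 4.61 to 9.89 TPM on glucose in all libraries. Their interactions, 1.47 and 1.27, were called on the TPM scale and were 0.97 and 0.77 after rescaling, under the fold threshold. Of 6 genes of glycolysis, gluconeogenesis, and the pentose phosphate pathway, *pyc1* (TRIREDRAFT_21957), for pyruvate carboxylase, was positive on both scales, and *pgd1* on the TPM scale only, with a list median of 0.71, or 0.19 after rescaling. *pyc1* had 147, 163, and 115 TPM in Δ*nsd3* mycelia on glycerol and 49.6, 38.5, and 34.3 TPM on glucose, against 134, 106, and 92.8 TPM in WT on glycerol and 122, 106, and 90.3 TPM on glucose. The response of WT was not called, and the mutant was below WT on glucose only (interaction 1.72, SE 0.24, adjusted p = 5.9e-05).

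Among 9 genes for the breakdown of polyols, pentoses, and galactose, *lad1* (TRIREDRAFT_49753), for L-arabinitol dehydrogenase, was negative on both scales. It had 30.3, 31.0, and 34.7 TPM in Δ*nsd3* mycelia on glycerol and 26.04, 25.2, and 26.4 TPM on glucose, against 24.6, 22.2, and 37.6 TPM in WT on glycerol and 10.1, 9.45, and 8.74 TPM on glucose. The strains overlapped on glycerol, and the mutant was higher on glucose. The interaction of −1.15 (SE 0.22, adjusted p = 0.00063) fell short of the fold threshold, at −0.93, without replicate 3 of WT on glycerol. The galactose genes *gal1*, *gal7*, and *gal10* were positive on the TPM scale only (1.30, 1.49, and 1.15, or 0.80, 0.99, and 0.63 after rescaling), and the list median was 0.87, or 0.37 after rescaling. Of 3 glycogen genes, *ugp1* was called on the TPM scale only.

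Of 13 chitinase and N-acetylglucosaminidase genes, *chi18-2* and *chit18-11* were negative on both scales (2.58% of all genes), and *nag2* and *chi18-7* after rescaling only, with a list median of 0.14, or −0.18 after rescaling. *chi18-2* (TRIREDRAFT_59082) had 178, 208, and 150 TPM in Δ*nsd3* mycelia on glycerol and 363, 326, and 415 TPM on glucose, against 543, 639, and 741 TPM in WT on glycerol and 623, 630, and 412 TPM on glucose. It fell on glycerol in the mutant alone, with an interaction of −1.27 (SE 0.24, adjusted p = 0.00058). When all 24 libraries shared 1 estimate of the spread, the same value was not called (adjusted p = 0.22, where the other alternatives gave at most 0.0023). *chit18-11*, at −1.31, was above 1 TPM only in the mutant on glucose.

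Hydrophobins are small secreted proteins that coat hyphae and spores. *hfb1* (TRIREDRAFT_73173) had 32.6, 60.3, and 35.3 TPM in Δ*nsd3* mycelia on glycerol and 2156, 2521, and 1570 TPM on glucose, against 45.8, 45.8, and 270 TPM in WT on glycerol and 1112, 681, and 541 TPM on glucose. It fell on glycerol in both strains, and the mutant was higher on glucose without overlap. The interaction was −2.46 (SE 0.70, adjusted p = 0.0087), and −1.61 without replicate 3 of WT on glycerol, the library at 270 TPM. *hfb2* rose to 37350, 31620, and 26370 TPM on glycerol in the Δ*nsd3* strain, against 661, 636, and 763 TPM on glucose, and to 95970, 100100, and 77170 TPM in WT, against 2497, 2538, and 1242 TPM on glucose. The mutant was lower on both carbon sources, and the interaction was 0.01 (SE 0.31, adjusted p = 0.98), or −0.51 after rescaling (adjusted p = 0.25). *hfb3* was called after rescaling only (−1.05, or −0.54 on the TPM scale), which made 1 of 3 hydrophobins negative on both scales, and the list median was −0.54, or −1.05 after rescaling.

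The remaining lists held no gene called on both scales. Of 13 cellulase, hemicellulase, and accessory genes tested, *cel5b*, *cel3c*, and *axe2* were positive on the TPM scale only (1.09, 1.19, and 1.24), and the list median was 0.22, or −0.03 after rescaling. None of the 39 ribosomal protein genes was called on either scale, and their medians, 0.52 and −0.01, lay near those of all genes. Proteasome subunits (6 genes, −0.14, or −0.66 after rescaling), histones (3 genes, −0.08, or −0.60), and genes of protein folding and secretion (13 genes, 0.12, or −0.40) had lower medians than all genes on both scales. In the last list, *sso1* was positive on the TPM scale only, and *pdi1*, for protein disulfide isomerase, was negative after rescaling only (−1.14, adjusted p = 0.00049). Of 24 signalling genes (median 0.57, or 0.06), *gna3* and *pkac2* were positive on the TPM scale only and the kinase gene *tmk3* negative after rescaling only. Of 4 genes of the light response (0.03, or −0.49), the photolyase gene *phr1* was negative after rescaling only. *sod1*, for superoxide dismutase, the 1 oxidative stress gene tested, had an interaction of 1.44, or 0.93 after rescaling, and the median of the glycogen list was 0.95, or 0.43.

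**Figure D4:**
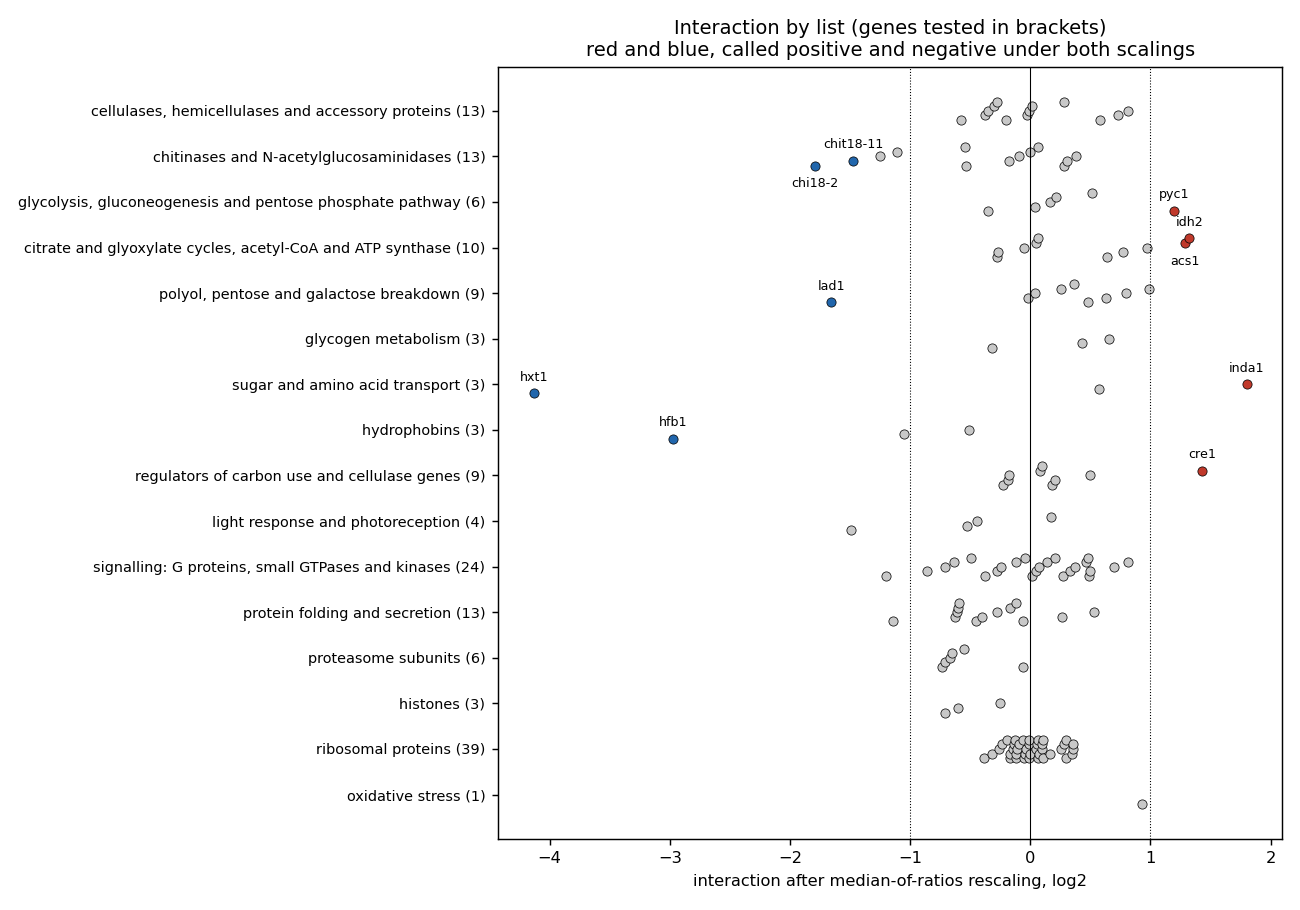
Interaction after median-of-ratios rescaling (horizontal axis, log2) of the genes tested in each of 16 lists (vertical axis, number tested in brackets), 1 point per gene, with dotted lines at the fold threshold. Red and blue points, which carry names, were called positive or negative on both scales, 5 genes in each direction, while the 39 ribosomal protein genes lie between −0.38 and 0.36.

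Of the genes that the study names by an identifier, TRIREDRAFT_67026, one of 2 siderophore transporters, had a positive interaction on both scales. It had 44.3, 51.9, and 47.0 TPM in Δ*nsd3* mycelia on glycerol and 61.0, 52.0, and 51.6 TPM on glucose, against 6.51, 7.81, and 11.1 TPM in WT on glycerol and 74.2, 53.6, and 54.4 TPM on glucose. WT lowered it on glycerol and the mutant was not called, so the strains were apart on glycerol and overlapped on glucose (interaction 2.52, SE 0.23, adjusted p = 1.5e-06). The other transporter, TRIREDRAFT_78465, had an interaction of −0.03 (SE 0.21, adjusted p = 0.90). The hexokinase gene *hxk* (TRIREDRAFT_80231) was positive on the TPM scale (1.30, adjusted p = 0.00036) and at 0.79 after rescaling, and on glucose, where the strain difference was not called, the mutant had 22.6, 17.3, and 17.6 TPM against 46.5, 39.6, and 31.1 TPM.

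For the putative Mot3p homologs TRIREDRAFT_58897 and TRIREDRAFT_112342, the interaction was 0.69 and 0.68, or 0.19 and 0.17 after rescaling, and neither was called. The homolog TRIREDRAFT_36453 was not analysed here. The Zn2Cys6 transcription factor gene TRIREDRAFT_112560 was at or below 0.038 TPM in the 6 mutant libraries and at 1.84 to 3.75 TPM in the 6 of WT, so its interaction of 0.60 stands for the WT response. The sugar transporter gene *lac1* and the acetyl xylan esterase gene TRIREDRAFT_54219 had at most 0.199 and 0.194 TPM in the 12 libraries and were not tested.

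Position was not used in choosing the genes. In the order of the RefSeq annotation (assembly v2.0 of strain QM6a), 5 runs held at least 4 genes called in the same direction with at most 1 other gene between neighbours. TRIREDRAFT_82026 belonged to a run of 5 positive genes among 6, from TRIREDRAFT_82017 to TRIREDRAFT_69557, with interactions of 1.81 to 6.29. Another run of 5 of 5 positive genes, from TRIREDRAFT_66687 to TRIREDRAFT_66562, had interactions of 1.44 to 3.18, and in 4 of them the call was a decrease on glycerol in WT alone. In the run of 4 of 4 genes from TRIREDRAFT_110265 to TRIREDRAFT_66758, the mutant had group means of at most 0.419 TPM, and WT had 1.97 to 9.22 TPM on glucose and at most 0.552 TPM on glycerol, so that the interaction is the WT response alone.

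Both runs of negative genes held 4 called genes. From TRIREDRAFT_112478 to TRIREDRAFT_112482, all 4 genes were called, among them TRIREDRAFT_82577, with interactions of −2.54 to −1.12. From TRIREDRAFT_78223 to TRIREDRAFT_107670, 4 of 5 genes were called, with interactions of −2.14 to −1.32. In this last run, TRIREDRAFT_78223 and TRIREDRAFT_107667 fell on glycerol in both strains, to 13.9 and 7.99 TPM in the mutant against 46.8 and 20.1 TPM in WT, and had 162 and 163 TPM on glucose in the mutant against 121 and 118 TPM in WT.

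The strain effect on cellulose was measured in the 12 other libraries, in which the cultures had been pregrown on glycerol for 24 h before 8 or 48 h on cellulose, and calls were again required on both scales. Of the 341 positive genes, 328 were tested there, and 97 (29.6%) were higher in Δ*nsd3* mycelia at 8 h, against 9.1% of all 7481 genes tested, while 11 (3.35%) were lower, against 6.1%. Of the 196 negative genes, 185 were tested, and 57 (30.8%) were lower at 8 h, while 17 (9.19%) were higher. At 8 h, calls in the direction of the interaction were thus more frequent in both groups than in all genes (9.1% higher and 6.1% lower). The contrast is a strain effect on cellulose alone, so the interaction itself was not measured again. Whether the glycerol cultures sequenced were the ones moved to cellulose is not given in the sources used here.

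At 48 h, the difference between directions was smaller. Of the positive genes, 56 (17.1%) were higher in the Δ*nsd3* strain, against 8.29% of all genes tested, and 24 (7.32%) were lower, against 3.84%. With a pseudocount of 5, the share of positive genes that were higher was 10.98%, against 6.24% of all genes. Of the negative genes, 22 (11.9%) were lower and 28 (15.1%) higher, so that both groups held more calls than all genes in either direction. Among the genes named above, *min1* had 4794, 1839, and 2594 TPM in Δ*nsd3* mycelia at 8 h against 46.7, 70.8, and 42.8 TPM in WT. TRIREDRAFT_82026, the gene with the largest interaction, had 346, 165, and 140 TPM in Δ*nsd3* mycelia at 8 h against 372, 266, and 172 TPM in WT, where the strains overlapped and the gene was not called. TRIREDRAFT_123079 had 30.8, 61.3, and 36.1 TPM in Δ*nsd3* mycelia at 8 h against 682, 715, and 675 TPM in WT, a log2 difference of −4.04 (adjusted p = 4.9e-07). TRIREDRAFT_123577 went the other way on cellulose, as the mutant was higher at 8 h by 1.83 (adjusted p = 0.0073).

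**Figure D5:**
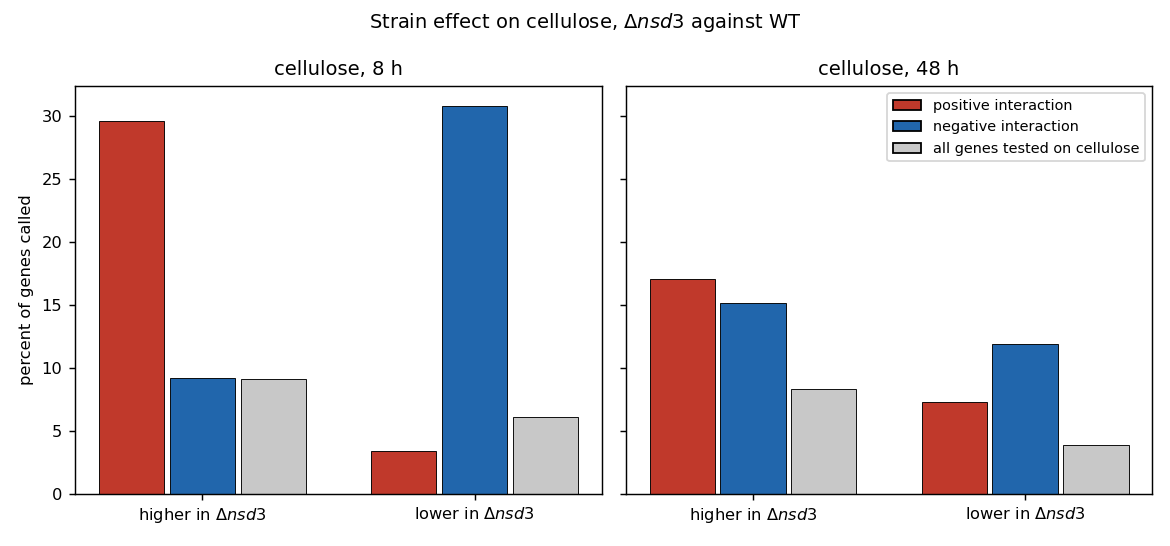
Percent of genes called higher or lower in the Δ*nsd3* strain than in WT on cellulose (vertical axis) at 8 h (left) and 48 h (right), for genes with a positive (red) or negative (blue) interaction and for all genes tested (grey). At 8 h, 29.6% of the positive genes were higher and 30.8% of the negative genes lower, against 9.1% and 6.1% of all genes, and at 48 h the shares lie closer together.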

How the data were processed

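Polyadenylated RNA was sequenced in triplicate with a stranded kit. The authors trimmed the reads with Trim Galore (version 0.6.7), mapped them to the *T. reesei* genome (JGI Trire2) with HISAT2 (version 2.2.1), counted them with featureCounts, whose strand setting is not given in the sources used here, and compared groups with DESeq2. The deposited values used here are the authors' TPM, which sum to 838257 to 886039 per library over the genes listed, and levels depend on the library's most abundant transcripts.

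A limma model with 4 group means was fitted to log2(TPM + 1) of the 12 libraries (lmFit, eBayes with trend, 8 residual degrees of freedom), and the interaction was a contrast of it, two-sided, with Benjamini-Hochberg adjustment over the 7583 genes with at least 1 TPM in 3 libraries. Differences on this scale understate changes of genes with low TPM. With 3 libraries against 3, an exact permutation test cannot go below p = 0.1 and was not used. For the second scale, TPM were divided by median-of-ratios size factors. Cellulose libraries were fitted separately. Depth was estimated from the steps of low TPM and RefSeq gene lengths, with 76.5% to 84.6% of low values within 0.1 of a whole read. In a library without reads of a gene, up to 3 are possible, which covers counting error only.

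The groups of genes, the lists, and the comparison were chosen with earlier results of these data known. Named genes were *nsd3*; among genes called on both scales with a group mean of at least 10 TPM, the 8 highest and 8 lowest interactions, up to 4 genes per direction with opposite called responses, and up to 4 called genes per list; the genes the study names by an identifier, except TRIREDRAFT_36453, which was not analysed here; and the first and last gene of each run of neighbours. *hfb2*, *hfb3*, *acu3*, *acu9*, *chit18-11*, TRIREDRAFT_107667, and other list members called on 1 scale were named after their values were seen. The RefSeq gene table held 8750 of the gene identifiers, with a symbol for 225 and no product names. Lists planned by product name, among them spore markers, were therefore replaced by 16 lists of symbols, and spores were not checked. The alternatives were a pseudocount of 0.1 or 5, no filter or 5 TPM, quantile normalization, all 24 libraries in the fit, a replicate block, eBayes without trend, array weights, voom on estimated reads, and each library left out. The model and the step estimate were tested on simulated data. The simulation for the model changed only genes above a set mean level and held no difference of scale between the strains. It therefore cannot speak to genes with low TPM or to the choice of scale. Models were fitted with limma (version 3.58.1) in R (version 4.3.3). Tables were made in Python (version 3.11.15) with pandas (version 2.3.3) and numpy (version 2.4.6), and plots with matplotlib (version 3.10.9).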

Additional observations from a re-analysis of the deposited data

Results flagged for a closer look

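For 537 genes, the change on glycerol differed between the Δ*nsd3* strain and WT by a test of the difference itself, in the same direction on both scales. Among the genes named by the rule for the highest and lowest interactions, opposite responses, lists, and identifiers, those with a larger increase or smaller decrease in the Δ*nsd3* strain were TRIREDRAFT_82026 (6.29), *min1* (5.51), TRIREDRAFT_76247 (4.73), TRIREDRAFT_111442 (4.38), TRIREDRAFT_112125 (4.102), TRIREDRAFT_4484 (3.90), TRIREDRAFT_76238 (3.80), TRIREDRAFT_105533 (3.56), TRIREDRAFT_122523 (3.44), TRIREDRAFT_5206 (2.79), TRIREDRAFT_67026 (2.52), *inda1* (2.31), *cre1* (1.95), *idh2* (1.85), *acs1* (1.81), and *pyc1* (1.72), each value being the log2 response of the Δ*nsd3* strain minus that of WT. In the other direction were *hxt1* (−3.64), TRIREDRAFT_106538 (−3.22), TRIREDRAFT_103179 (−3.09), TRIREDRAFT_123079 (−2.78), TRIREDRAFT_104251 (−2.74), TRIREDRAFT_109239 (−2.66), TRIREDRAFT_107644 (−2.61), TRIREDRAFT_82577 (−2.50), *hfb1* (−2.46), TRIREDRAFT_123577 (−2.25), *chi18-2* (−1.27), and *lad1* (−1.15). Under 10 TPM in every group or outside that rule, *chit18-11* (−1.31) and TRIREDRAFT_112478 (−2.54) were also negative and TRIREDRAFT_69557 (2.50) positive. Groups of 3 libraries were too small to test single libraries as outliers.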

How the results depend on the processing

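Counts and the median depended on the scaling and the pseudocount. The 1178 positive interactions became 552 with a pseudocount of 5, 341 with median of ratios, 366 with quantile normalization, 448 with voom, 342 with median of ratios and the replicate block, and 334 with median of ratios without replicate 3 of Δ*nsd3* mycelia on glycerol, a setting chosen after seeing the data. In the same order, the 196 negative ones became 130, 483, 429, 513, 488, and 477. The 17 opposite responses became 30 with a pseudocount of 0.1, 6 with 5, 11 with median of ratios, with and without the block, 9 with quantile normalization, and 10 in the added setting. The median interaction of 0.46 became 0.34 with a pseudocount of 5, 0.39 with no filter, −0.0102 with median of ratios with and without the block, −0.0113 in the added setting, 0.0262 with quantile normalization, and −0.0056 with voom. The 1410 genes up in the Δ*nsd3* strain became 844 with a pseudocount of 5, 884 with median of ratios with and without the block, 812 with quantile normalization, and 899 in the added setting. The 571 genes down became 908 with median of ratios with and without the block, 870 with quantile normalization, 1079 with voom, and 937 in the added setting. The 1060 genes down in WT became 695 with a pseudocount of 5. Only shifts beyond a set size are listed here, and smaller ones occurred as well. For example, the 695 genes up in WT became 1033 with voom, 872 with median of ratios, and 487 with a pseudocount of 5. The positive interactions became 1567 with a pseudocount of 0.1. Beyond the construction of each setting, the cause was not tested.

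Leaving out 1 library at a time gave 1043 to 1429 positive and 176 to 210 negative interactions, 12 to 20 opposite responses, a median of 0.42 to 0.51, 1336 to 1529 genes up and 556 to 587 down in the Δ*nsd3* strain, and 678 to 761 up and 1018 to 1125 down in WT. On cellulose, the share of positive genes called higher was 27.4% to 31.7% at 8 h and 12.5% to 17.4% at 48 h, where a pseudocount of 5 gave 10.98%. The share of negative genes called lower was 29.2% to 32.4% at 8 h and 10.8% to 12.4% at 48 h.

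Of 34 named genes, 29 kept both their sign and their side of the threshold in every alternative. The exceptions were TRIREDRAFT_123079 and *chi18-2*, given in the report, *lad1* (−0.91 with a pseudocount of 5, −0.96 with array weights, and −0.93 without replicate 3 of WT on glycerol), *hxk* (0.79 to 0.88 under the other scalings), and TRIREDRAFT_78465, not called anywhere, which ranged from −0.16 to 0.14 with 1 library left out and was above 0 in 3 of these fits (0.06, 0.02, and 0.14). Of the 341 and 196 genes, at least 267 and 124 kept their call in each of 25 alternatives, and none was called in the opposite direction. The alternatives refit all or nearly all of the same libraries, so opposite calls could hardly arise, and their absence is no separate support. Median of ratios, which served to choose these genes, is among the alternatives and kept all of them by construction. The planned fits without 1 library used the TPM scale and kept all 341 positive genes and 168 to 188 of the 196 negative genes. The positive genes were limited by the rescaled values, and their smallest interaction on the TPM scale was 1.15. Keeping all of them on that scale is therefore no separate support. The negative genes began at the fold threshold of 1. Median of ratios without replicate 3 of Δ*nsd3* mycelia on glycerol kept 309 positive and 195 negative genes. No pairing of samples by replicate number was seen, but groups of 3 libraries are too small to exclude it. Of 18 same-numbered pairs, 5 correlated by over 0.1 (−0.305 to 0.254, against −0.227 to 0.257 for other pairs). In 5 of 12 libraries, the best correlation was with their own number. The replicate block gave 1181 positive and 199 negative calls.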
